A study of Mus musculus with 12 samples.

Results

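The regions described here are 128,511 autosomal stretches of the mouse retinal genome in which 5-hydroxymethylcytosine (5hmC) could be set against total cytosine modification in animals that lack the TET enzymes. Whole retinas of mice at postnatal day 21 were profiled with bACE-seq and whole-genome bisulfite sequencing (WGBS). Each assay was run on 3 libraries from Cre- and 3 from Tet tcKO mice. In Tet tcKO mice a Chx10::Cre-GFP transgene deletes floxed Tet1, Tet2 and Tet3 in retinal progenitor cells. Cre- mice, given as WT in the labels, lack the transgene, and both groups are given as strain C57 BL/6J. For each assay the authors called regions that differed between the groups and deposited 1 mean level per group. A WGBS region was taken where bACE-seq regions covered at least 50% of its bases, which held for 67.4% of the 190,763 autosomal WGBS regions, out of 193,836 in all. These shared regions held 1,345,236 CpGs in 63.2 Mb and lay under 116,137 of the 592,906 bACE-seq regions. The lists give no level for a single library and no read depth, so no spread, interval or test stands beside any level, and every comparison below is a description.

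TET enzymes oxidise 5-methylcytosine (5mC) to 5hmC and onward to bases that repair replaces with unmodified cytosine. Neurons keep 5hmC as a lasting mark, mostly along the bodies of genes, while CpG-rich start sites carry little of either modification. WGBS reads 5mC and 5hmC together. In bACE-seq, bisulfite first converts unmodified cytosine and protects 5hmC, and an APOBEC deaminase then removes the signal of 5mC, so that 5hmC is read alone. An unmodified cytosine that escaped both steps, or a 5mC that escaped the deaminase, would be read as 5hmC. The WGBS level is the percentage of modified CpGs, and the 5hmC share is the 5hmC level as a percentage of the WGBS level of the same group. The 5hmC kept is the level in Tet tcKO as a percentage of that in Cre-. Whole retina also holds microglia, vessels and astrocytes, which do not arise from Chx10-expressing progenitors, and the transgene is known to act in a mosaic manner, against which Cre-positive animals were in-crossed. Controls came from separate Cre- breeders. Fewer cells with 5hmC and less 5hmC per cell cannot be told apart in these bulk levels, nor can a different makeup of cell types, photoreceptors included, between Cre- and Tet tcKO retinas.

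The ends of the range are shown by sequence, read from the plus strand of GRCm38 (mm10) with every CpG in capitals, and each ends on the G of its last CpG. The first set holds regions with the most 5hmC left in Tet tcKO, among regions of at least 10 CpGs with at least 80% of their bases covered. Short units with a CpG, or runs of alternating bases, are repeated along much of these sequences. The chr14 region was intergenic and lay 148,203 bp from the olfactory receptor gene Olfr1507. The chr9 and chr10 regions lay in introns of Alg9, a glycosyltransferase gene, and of Cry1, a clock gene.
chr14:52643952-52644019: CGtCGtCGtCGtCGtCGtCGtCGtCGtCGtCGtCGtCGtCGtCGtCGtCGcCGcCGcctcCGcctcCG
chr9:50780094-50780154: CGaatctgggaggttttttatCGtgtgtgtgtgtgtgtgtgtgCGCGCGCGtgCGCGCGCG
chr10:85144547-85144716: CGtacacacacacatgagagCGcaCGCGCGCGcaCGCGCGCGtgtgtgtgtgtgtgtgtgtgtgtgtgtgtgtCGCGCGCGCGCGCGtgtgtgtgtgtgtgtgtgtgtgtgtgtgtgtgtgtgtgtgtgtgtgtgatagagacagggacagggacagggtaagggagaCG

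The second set holds regions with the lowest WGBS level in Tet tcKO under the same minimum, which were CpG-rich without being repeats. The chr15 region crossed the end of the first coding exon of Gxylt1, a xylosyltransferase gene. The chr19 region lay in a coding exon of the synaptic adhesion gene Nrxn2, and the chr4 regions in introns of Atp6v0b, a proton pump subunit gene, and of Mllt3, a chromatin reader gene.
chr15:93274826-93275004: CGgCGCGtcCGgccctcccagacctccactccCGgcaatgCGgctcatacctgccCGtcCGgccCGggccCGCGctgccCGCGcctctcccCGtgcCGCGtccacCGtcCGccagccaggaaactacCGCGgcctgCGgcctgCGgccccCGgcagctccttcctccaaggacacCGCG
chr19:6428614-6428724: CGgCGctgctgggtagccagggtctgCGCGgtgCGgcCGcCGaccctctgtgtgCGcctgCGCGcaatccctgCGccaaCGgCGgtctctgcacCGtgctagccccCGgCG
chr4:117886832-117886915: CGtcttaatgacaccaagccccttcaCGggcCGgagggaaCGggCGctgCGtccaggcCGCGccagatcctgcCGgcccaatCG
chr4:88031378-88031515: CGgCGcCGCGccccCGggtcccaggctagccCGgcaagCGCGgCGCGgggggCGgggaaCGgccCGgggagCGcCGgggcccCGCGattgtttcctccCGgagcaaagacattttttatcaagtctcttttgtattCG

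In Tet tcKO retinas most CpGs of the shared regions were methylated, and a small part of the modified CpGs carried 5hmC. Weighted by CpGs, the WGBS level was 77.5%, which left 22.5% of CpGs unmodified. The 5hmC level was 4.88%, and subtracting it from the WGBS level gave 72.6% as an approximate 5mC level. Thus 5hmC made up 6.30% of modified cytosine in Tet tcKO. These values include any cytosine that escaped conversion: with 2 percentage points subtracted from every 5hmC level, the level was 2.91% and the share 3.76%. In Cre- retinas the WGBS level of the same regions was 60.7%, the 5hmC level 19.2% and the share 31.6%. The approximate 5mC level there was 41.5%, lower than in Tet tcKO. Escape of 5mC from the deaminase could thus differ between the groups, and subtracting the same amount from both is an assumption that was not tested. The WGBS level was higher in Tet tcKO in 127,983 shared regions (99.6%). Of all autosomal WGBS regions 98.8% were higher, so this direction was not particular to the shared regions. A bACE-seq region was usually longer than the WGBS region it covered, with medians of 1392 and 384 bp, so both levels are means over partly different CpGs.

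Single regions varied around these values. The middle of the 5hmC share lay at 5.74%, with 10th and 90th percentiles at 3.05% and 9.40%. The 5hmC level in Tet tcKO was at least 10% in 1,512 regions (1.18%) and under 2% in 7,703 (5.99%). Over all autosomal bACE-seq regions these shares were not computed. The 5hmC level did not exceed the WGBS level in any shared region of Tet tcKO, whereas in Cre- it did in 780 regions (0.607%). Regions just inside the coverage limit, with 50% to 55% of their bases covered, had a WGBS level of 68.6% and a 5hmC share of 6.97%. Those just outside it, with 45% to 50%, had 67.8% and 7.04%.

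The residual 5hmC level followed the level in Cre- closely. A line over all 128,511 regions, weighted by CpGs, had a slope of 0.259 and an intercept of -0.08 percentage points, and Spearman's rho across regions was 0.834. Regions are not replicates, and both levels come from the same bACE-seq regions and the same smoothing. Where Cre- retinas had under 5% 5hmC, the mean in Tet tcKO was 0.980%, and where they had over 40%, it was 11.1%. The 5hmC kept was 25.5% over all shared regions, or 17.0% with 2 percentage points subtracted in both groups. Without that subtraction it was 25.7% in the first and 26.2% in the second of these groups. It lay between 20% and 30% in 84,692 regions (65.9%).

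**Figure D1:**
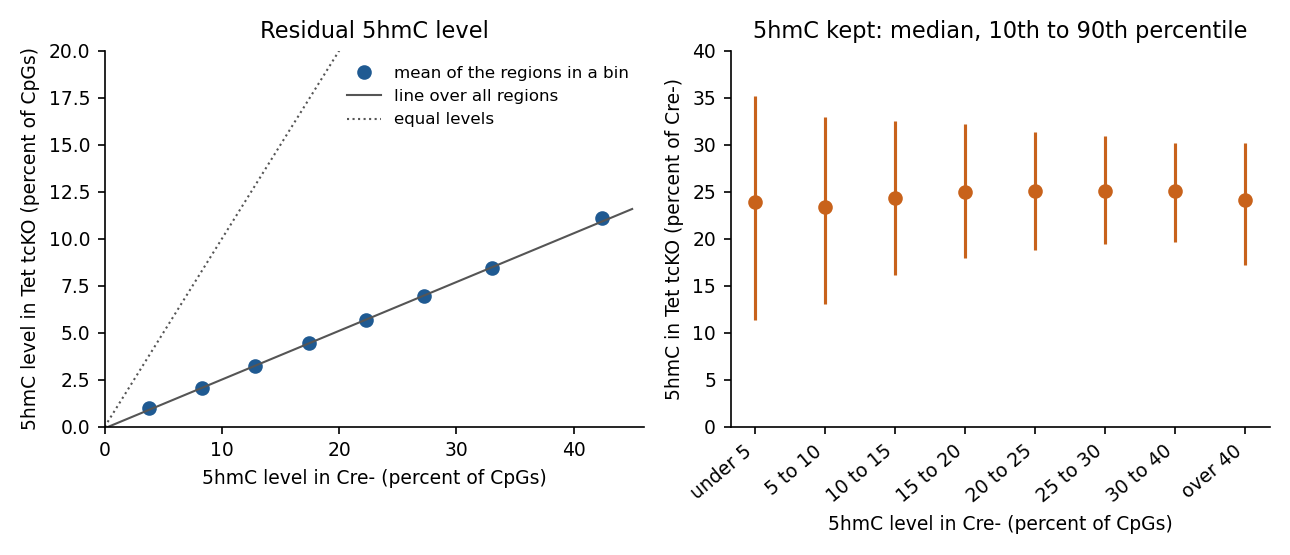
The left panel plots the CpG-weighted 5hmC level in Tet tcKO (percent of CpGs) against that in Cre- for shared regions binned by the Cre- level, with the line over all regions and the line of equal levels. The right panel gives the median of the 5hmC kept in each bin as points and the 10th to 90th percentile over regions as lines. The points follow the line of slope 0.259, far below equal levels, and the medians lie between 23.4% and 25.1%.

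Few regions kept at least 50%, or less than 10%, of the Cre- 5hmC level. In 119 shared regions (0.0926%) Tet tcKO kept at least 50% of the Cre- 5hmC level, where 0.203% of all autosomal bACE-seq regions did. In 1,538 regions (1.2%) less than 10% was kept, and in 9 regions (0.007%) the 5hmC level was higher in Tet tcKO. The matching shares over all bACE-seq regions were not computed. Most of the spread lay in regions with few CpGs. With 4 to 10 CpGs in the covering bACE-seq regions, the 10th and 90th percentiles of the 5hmC kept were 13.3% and 34.3%, and with over 100 CpGs they were 22.7% and 29.0%. The authors called the bACE-seq regions on a difference between the same groups, and a region without a called difference in 5hmC could not enter. The 5hmC kept thus describes called regions and not the genome.

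Incomplete methylation was frequent in promoters, and high residual 5hmC in gene bodies. In 5,301 shared regions (4.12%) the WGBS level in Tet tcKO stayed under 50%, against 8.31% of all autosomal WGBS regions. Of the 5,301 regions, 5,250 were also under 50% in Cre-, where 25,863 of all shared regions (20.1%) were. With 99.6% of shared regions higher in Tet tcKO, this follows almost from the direction alone. The 62,252 autosomal WGBS regions left out for too little coverage had a WGBS level of 65.0% in Tet tcKO, and 17.0% of them were under 50%. At the other end, 28,640 shared regions (22.3%) reached 90% or more, a share that was not computed over all autosomal WGBS regions. Of the 5,301 regions under 50%, 41.5% lay in promoters, taken as the 2 kb before and after a start site, where 9.87% of all shared regions lay. Of the 531 regions under 20%, 63.5% lay in promoters. Of the 1,512 regions with at least 10% 5hmC, 81.2% lay in gene bodies, where 61.6% of all shared regions lay. Promoters held 8.53% of them, close to their 9.87% of all shared regions, and the median WGBS level was 87.5% beside 83.8% over all. Both conditions, a WGBS level under 50% and at least 10% 5hmC, held in 9 regions.

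A high 5hmC share was met over a wide range of methylation. Along the WGBS level in Tet tcKO, the 5hmC level was 1.31% in the 76 regions under 10% modified, 5.24% in those of 80% to 90% and 4.91% in those over 90%. The 5hmC share went the other way, from 15.6% in the first of these groups to 5.31% in the last, and here the WGBS level is the denominator of the share. A share of at least 10% was met in 9,399 regions (7.31%). Their median WGBS level was 75.7%, and 1,752 of them had a WGBS level under 50% with a median 5hmC level of 4.71%. The 1,512 regions with at least 10% 5hmC are among them by arithmetic. Across regions the residual 5hmC level followed the WGBS level in Tet tcKO only weakly (Spearman's rho = 0.127 over 128,511 regions), while the WGBS levels of Cre- and Tet tcKO kept nearly the same order (rho = 0.934). Such regions share libraries, smoothing and neighbouring CpGs.

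**Figure D2:**
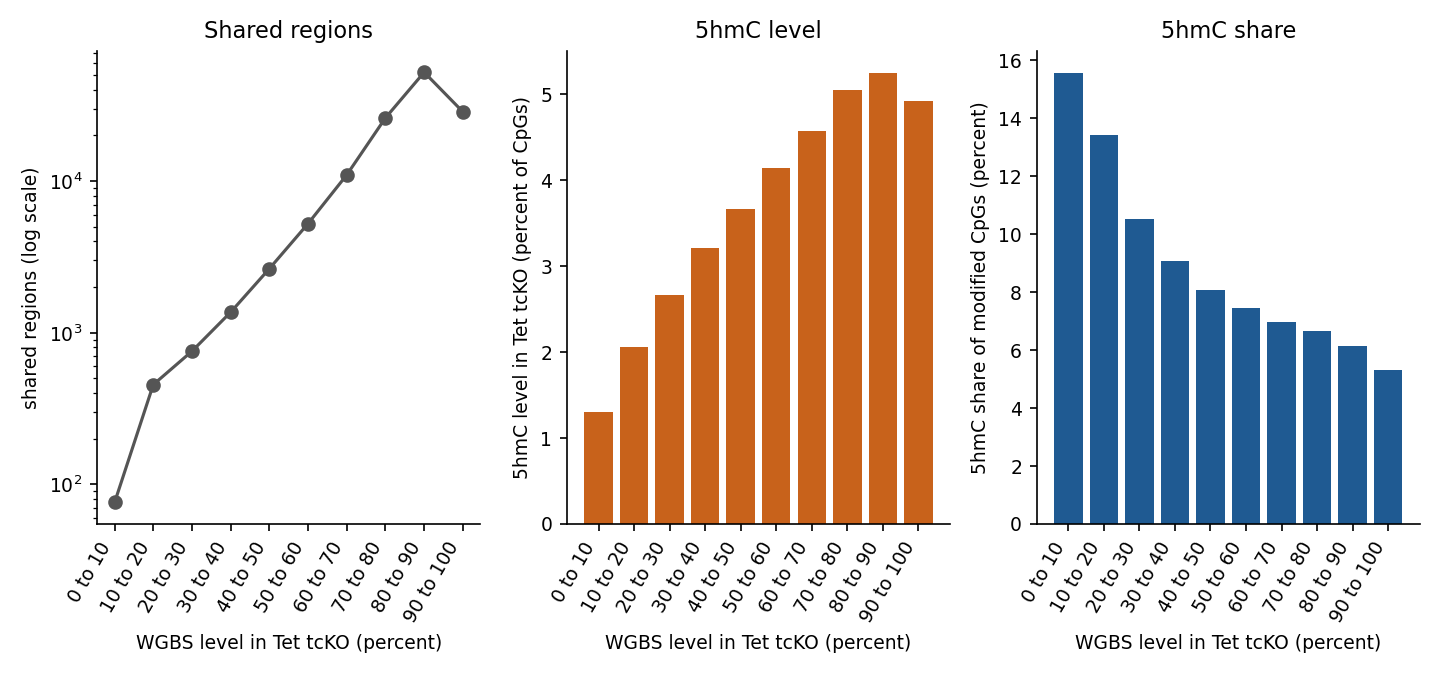
Shared regions are grouped by their WGBS level in Tet tcKO (percent, horizontal axes). The panels give the number of regions on a log scale, the CpG-weighted 5hmC level in Tet tcKO (percent of CpGs) and the 5hmC share of modified CpGs (percent). The 5hmC level is lowest in the least modified group at 1.31%, where the share is highest at 15.6%.

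Promoters had the lowest methylation, and intergenic sequence the lowest residual 5hmC. In the 12,690 promoter regions the WGBS level in Tet tcKO was 65.9%, and 17.3% of them were under 50%. In the 79,144 gene body regions it was 79.7%, and in the 36,677 intergenic regions 77.2%. The 5hmC level was 4.64% in promoters, against 5.21% for gene bodies and 4.22% between genes, and the 5hmC share was 7.03%, 6.53% and 5.47%. The 5hmC kept was 25.7%, 25.6% and 25.03% in the same order. Within gene bodies, regions centred on an exon had a 5hmC level of 4.41% and a share of 5.72%, where those in introns had 5.31% and 6.63%.

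Around transcription start sites the lowest methylation and the lowest 5hmC were nearly in register. The WGBS level in Tet tcKO was 79.1% more than 50 kb upstream, 61.9% in the last 0.5 kb before the start site and 60.6% from 0.5 to 1 kb after it, and 26.4% of the regions there were under 50%. The 5hmC level was lowest at 4.11% in the first 0.5 kb after the start site. It was highest at 5.39% from 2 to 5 kb downstream, where the WGBS level was 77.1%. The 5hmC share was highest from 1 to 2 kb downstream at 7.40%. In Cre- the WGBS level dipped at the same distances, to 45.01% from 0.5 to 1 kb downstream.

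**Figure D3:**
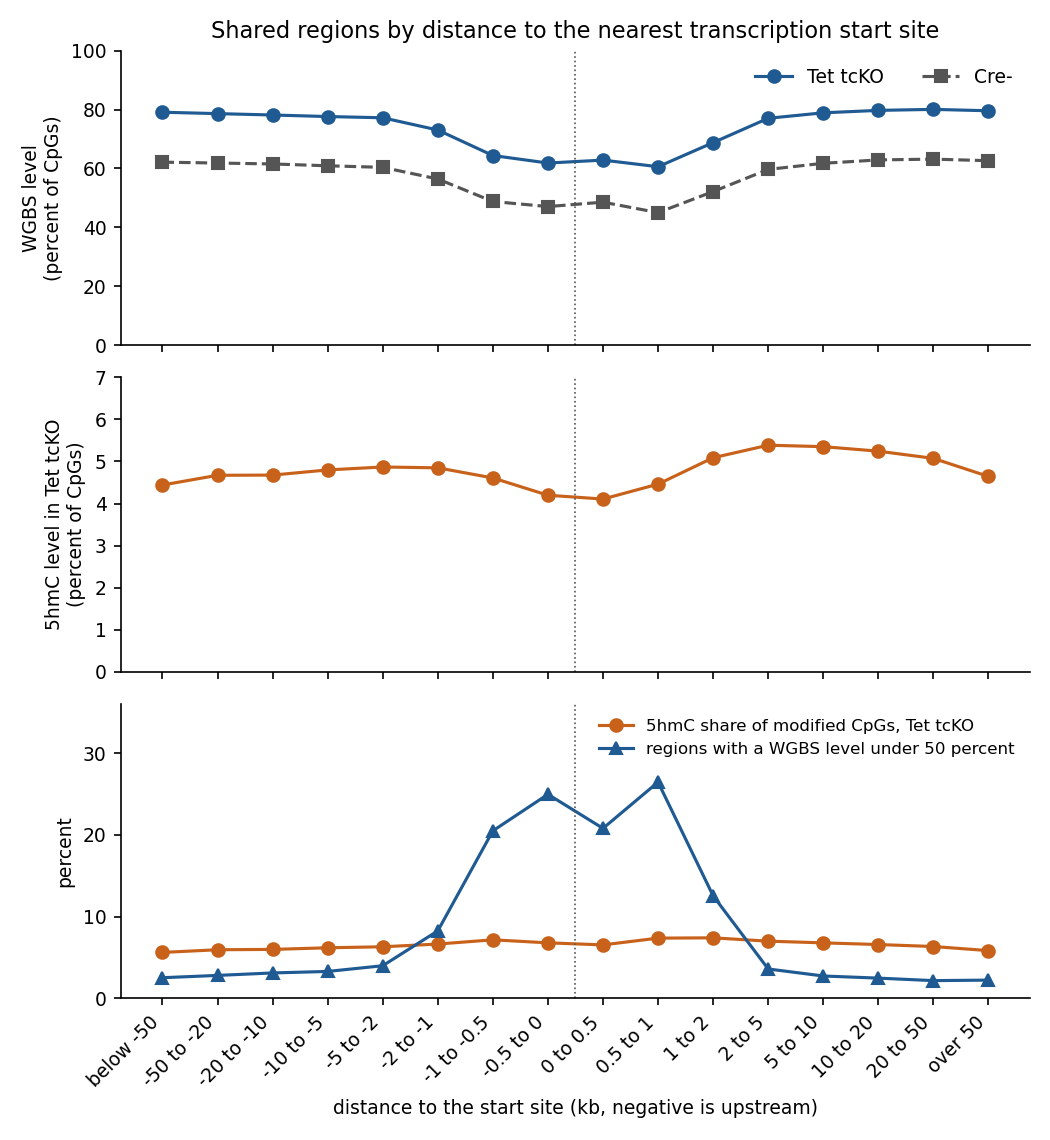
Shared regions are binned by the distance of their middle to the nearest start site (kb, negative upstream; the dotted line marks the start site). The panels give the WGBS level in Tet tcKO and Cre- (percent of CpGs), the 5hmC level in Tet tcKO (percent of CpGs), and, in percent, the 5hmC share with the part of regions under 50% in WGBS. That part reaches 26.4% next to the start site, while the 5hmC share stays between 5.61% and 7.40%.

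Along protein-coding genes of at least 20 kb, residual 5hmC was graded while methylation was not. Genes were cut into 10 parts of equal length from start to end, leaving out promoters. The 5hmC level in Tet tcKO was 5.80% in the first part and lower in each following one, down to 4.64% in the last. The WGBS level stayed between 79.4% and 80.7%. The 5hmC share was therefore 7.31% in the first part and 5.81% in the last. The 5hmC kept was 25.5% and 25.9%, and the Cre- levels of 22.7% and 17.9% had the same gradient. By gene length, the 5hmC share was highest in genes of 50 to 100 kb at 6.94% and lowest in genes over 500 kb at 5.60%, where the 5hmC kept was 24.8%.

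**Figure D4:**
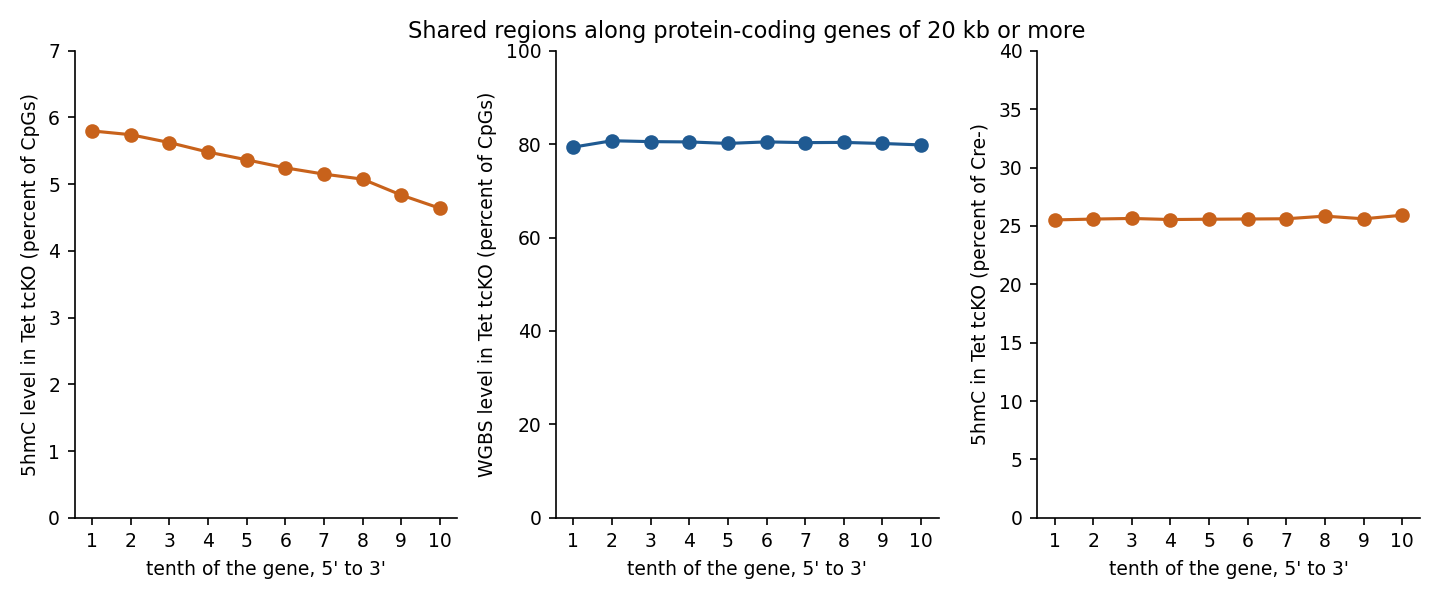
The horizontal axes give 10 equal parts of protein-coding genes of at least 20 kb from start to end, and the points give CpG-weighted means of the shared regions in Tet tcKO. The 5hmC level (percent of CpGs, left) goes from 5.80% to 4.64%, the WGBS level (percent of CpGs, middle) stays near 80%, and the 5hmC kept (percent of Cre-, right) lies between 25.5% and 25.9%.

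CpG density separated the same features. The regions were divided into 4 equal groups by CpGs per 100 bp, with medians of 1.40 in the poorest and 3.86 in the densest. The 5hmC level in Tet tcKO was 5.62% in the poorest group and 4.16% in the densest, and the 5hmC share was 7.08% and 5.59%, a difference of -1.49 percentage points. Unmodified CpGs went the other way, with 20.6% and 25.6%. The 3,944 densest promoter regions had 44.0% of their CpGs unmodified, where the 19,094 densest gene body regions had 21.5%. The 5hmC kept was 24.7% in the poorest and 26.2% in the densest group. In the 5,501 regions of which at least 50% of the bases are soft-masked as repeats in the reference, the WGBS level was 83.9%, the 5hmC level 4.88% and the 5hmC kept 25.3%.

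The 5hmC share was similar on every autosome. It ranged from 6.01% on chromosome 3 to 6.63% on chromosome 11 (SD 0.190 over 19 chromosomes), and the 5hmC kept from 25.1% on chromosome 3 to 25.8% on chromosome 4. Over 374 bins of 5 Mb with at least 1000 CpGs in shared regions, the 5hmC share had 10th and 90th percentiles of 5.54% and 6.86%. It was lowest at chromosome 8, positions 5000001 to 10000000, with 4.77%, and highest at chromosome 4, 145000001 to 150000000, with 8.56%. The 5hmC kept was lowest at chromosome 9, 80000001 to 85000000, with 21.9%, and the WGBS level was lowest at chromosome 8, 70000001 to 75000000, with 63.1%.

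Genes were then compared by the shared regions whose middle they contained. In 1,043 protein-coding genes with at least 200 CpGs in such regions, the 5hmC share ranged from 3.51% to 12.1% with a median of 6.71%, and the 5hmC kept lay between 20% and 30% in 1,037 of them (99.4%). The following genes were picked after their values were seen, as the ends of that range. The highest share, 12.1%, was at Anp32a (chromosome 9, 62341293 to 62378812), which encodes a nuclear phosphoprotein. It was followed by the heparan sulfate enzyme gene Hs3st3b1 with 11.5%, the ubiquitin ligase gene Rnf145 with 11.4%, the DNA repair helicase gene Ercc2 with 11.3% and the histone acetyltransferase gene Kat6a with 11.02%. The lowest shares were at long genes, 3.51% at D430041D05Rik, 3.56% at the catenin gene Ctnna3 (chromosome 10, 63430098 to 65003667), 3.78% at the synaptic scaffold gene Dlg2 and 3.97% at the glutamate receptor gene Grin2b. At Rnf145 the 5hmC level was 9.76% in Tet tcKO and 33.3% in Cre-, and at Ctnna3 it was 2.86% and 12.5%. The lowest fraction kept, 20.1%, was at Sh3bgrl2 on chromosome 9, inside the 5 Mb bin with the lowest value.

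Marker genes of retinal cell types were described with 5 kb on each side of the gene. Of 146 genes in 14 lists, 123 met at least 1 shared region and 98 had at least 20 CpGs in them. The 5hmC share differed among lists from 4.66% to 8.99%, while the 5hmC kept lay between 24.0% and 26.9% in each. Over all shared regions these values were 6.30% and 25.5%. The 6.30% includes intergenic sequence, and the median share of the 1,043 protein-coding genes described above was 6.71%. Most of those genes thus also lay above 6.30%, so a list gene above it is not unusual. Counts above it still differed among lists, from 9 of 9 rod genes to 0 of 6 astrocyte genes. The 1,043 genes were taken without flanks and with at least 200 CpGs, unlike the list genes, so their median is not a like measure. Values of a list pool its CpGs, and genes are called highest or lowest only among those with at least 20 CpGs. A list is described over whole retina DNA, so its values are not those of the cell type it marks.

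Photoreceptor precursor genes had the highest pooled 5hmC share of the lists, 8.99%, while by the median over genes rod genes were highest, with 8.59% against 8.45%. In the precursor list 7 of 8 genes were met, with a 5hmC level of 6.57% in Tet tcKO against 26.7% in Cre-. Of the 6 with at least 20 CpGs, 4 were above the 6.30% of all shared regions. The nuclear receptor gene Rorb (chromosome 19), needed for rod development, held 455 of the list's 1159 CpGs in 41 regions, the most of any of its genes. Its WGBS level was 81.6%, its 5hmC level 7.63% and its share 9.35%, the highest among genes with at least 20 CpGs. Within Rorb and its flanks the 5hmC level of single regions ran from 3.47% to 10.2%. The lowest share was at Onecut1, a transcription factor gene of early retinal fates, where the WGBS level was 57.7% and the share 3.60%.

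Rod genes had a 5hmC share of 7.88%, and 9 of 9 genes with enough CpGs were above 6.30%. That mark lies below the median gene share of 6.71% over the 1,043 protein-coding genes. The WGBS level of rod genes in Tet tcKO was 79.1%, and 1 of their 61 regions was under 50%. The transducin subunit gene Gnb1 (chromosome 4), which is also expressed outside rods, held the most CpGs of the list, with a WGBS level of 87.0%, a 5hmC level of 7.57% and a share of 8.70%. Among genes with at least 20 CpGs, the share was highest at Samd7 (9.59%), which encodes a silencing factor of rods, and lowest at the channel subunit gene Cngb1 (6.34%). Samd7 kept 29.6% of its Cre- 5hmC and Cngb1 21.7%.

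Cone genes had a lower share, 6.60%, and varied more among themselves. Of 8 genes with enough CpGs, 3 were above 6.30%. The cone transducin gene Gngt2 had 9.96%, the thyroid hormone receptor gene Thrb, which sets cone opsin choice, 6.06% over 18 regions, and the nuclear receptor gene Rxrg 3.97%. At Rxrg a single region of 21 CpGs stood for the gene, with a WGBS level of 71.9%, a 5hmC level of 2.85% and 16.0% kept, the lowest of the 98 genes. The X-linked cone gene Arr3 was outside the autosomes. Since genes are not replicates, rod and cone lists were set side by side without a test.

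The sequences printed here are examples from these lists, picked after their values were seen. They hold 5 CpGs each at Samd7 and Rorb and 7 in 78 bases at Thrb. Their 5hmC levels are means over longer covering bACE-seq regions, of 642, 617 and 3563 bp in that order. At Samd7 and Rorb these levels are the highest of any shared region of the gene. The chr3 region lay upstream of Samd7 and had a WGBS level of 89.5% and a 5hmC level of 9.59% in Tet tcKO, against 98.5% and 21.9% in Cre-. The chr19 region lay in an intron of Rorb with 91.7% and 10.2%, against 82.3% and 33.2%. The chr14 region lay in an intron of Thrb with 82.9% and 5.70%, against 74.5% and 18.8%.
chr3:30743468-30743751: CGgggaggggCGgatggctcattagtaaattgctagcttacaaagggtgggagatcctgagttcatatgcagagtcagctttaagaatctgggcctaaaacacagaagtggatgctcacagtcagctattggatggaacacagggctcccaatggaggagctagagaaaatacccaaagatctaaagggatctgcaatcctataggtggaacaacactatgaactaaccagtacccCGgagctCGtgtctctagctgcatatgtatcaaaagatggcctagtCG
chr19:19068434-19068716: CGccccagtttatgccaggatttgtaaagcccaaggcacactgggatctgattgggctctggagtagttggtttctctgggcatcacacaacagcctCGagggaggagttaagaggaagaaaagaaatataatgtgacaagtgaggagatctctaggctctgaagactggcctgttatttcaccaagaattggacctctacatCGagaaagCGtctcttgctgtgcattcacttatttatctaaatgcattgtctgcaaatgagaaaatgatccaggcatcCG
chr14:17884949-17885026: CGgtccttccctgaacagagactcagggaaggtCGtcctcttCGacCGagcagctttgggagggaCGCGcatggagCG

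Genes of the other retinal neurons and of Muller glia had shares between 4.93% and 7.07%. Amacrine genes had 7.07%, and among genes with at least 20 CpGs the highest was the glycine transporter gene Slc6a9 with 8.34%, the lowest the eye field gene Pax6 with 4.05% at a WGBS level of 56.5%. Bipolar genes had 6.47%, of which the kinase gene Prkca held 1278 of 1615 CpGs at 6.99%, and the lowest was Gsg1 with 3.45%. Their WGBS level of 83.0% was the highest of the lists, and 0 of their 160 regions were under 50%. Horizontal cell genes had 6.26%, from the tropomyosin gene Tpm3 with 3.81% to the septin gene Sept4 with 8.09%. Muller glia genes had 6.63%, from the water channel gene Aqp4 with 4.41% to the glutamine synthetase gene Glul with 8.13%. Ganglion cell genes had 4.93%, with 5 of 10 genes met and Sncg highest, at 6.36%, of the 3 with at least 20 CpGs.

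Progenitor genes had a share of 5.71% and the lowest WGBS level of the lists, 70.8%, and 8 of their 35 regions were under 50%. Among genes with at least 20 CpGs, the Notch target gene Hes5 had the highest share, 7.42%, at a WGBS level of 56.8%, and the Wnt inhibitor gene Sfrp2 the lowest, 3.49%, at 80.1%.

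Genes of cells outside the Chx10 lineage had low 5hmC in both groups, but this was not particular to them. Ganglion cell genes had 3.78% in Tet tcKO and 14.2% in Cre-. Progenitor genes had 4.04% and 16.8%, near the 4.21% and 16.2% of vascular genes. Microglia genes had the lowest pooled share of the lists, 4.66%, while by the median over genes bipolar genes were lowest with 4.51%, beside 4.58% for microglia and 4.59% for astrocyte genes. Pooled over microglia genes, the 5hmC level was 3.50% in Tet tcKO and 13.0% in Cre-. Of the 5 with at least 20 CpGs, the share was lowest at Tmem119 (2.69%), and the chemokine receptor gene Cx3cr1, with the most CpGs, had 4.58%. Vascular genes had 5.47%, from Erg with 4.16% to Vwf with 6.65%, and astrocyte genes 5.04%, from S100b with 4.28% to Pdgfra with 6.15%. The 5hmC kept was 26.9% at microglia, 26.0% at vascular and 25.3% at astrocyte genes, beside 24.6% at rod and 24.3% at cone genes. The part of such cells in the residual 5hmC was not tested.

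The genes of the methylation machinery and housekeeping genes had shares near those of rod genes, 8.20% and 8.13%. Tet3 itself (chromosome 6) had the highest share of the machinery list, 10.3%, over 526 CpGs in 26 regions. Its 5hmC level was 8.36% in Tet tcKO and 29.9% in Cre-, and its WGBS level was 81.6% and 58.1%. Uhrf1, which brings the maintenance methyltransferase to replicated DNA, had the lowest among genes with at least 20 CpGs, 3.39%. Among housekeeping genes B2m had 9.94%, Ywhaz, with the most CpGs, 9.80% and Tbp 6.08%.

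**Figure D5:**
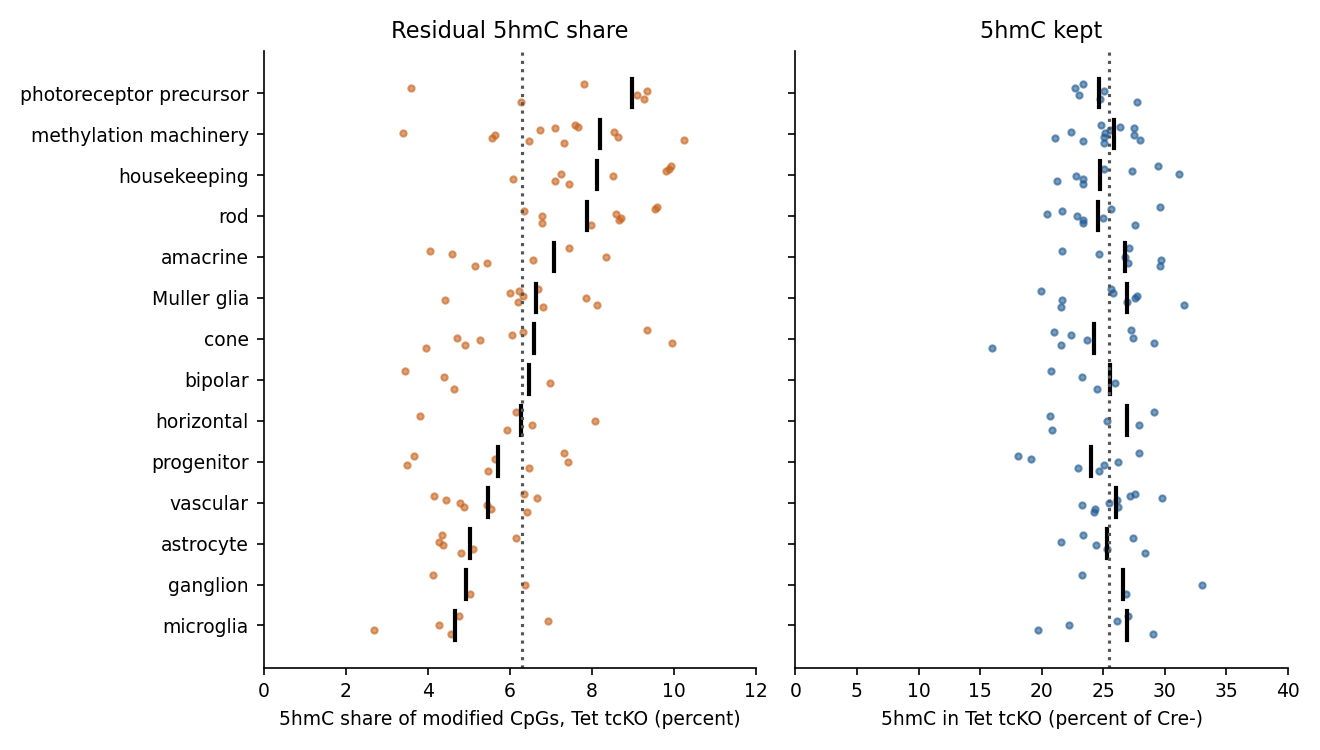
Each row is a gene list, each point a gene with at least 20 CpGs in shared regions, and each black bar the CpG-weighted value over the list's regions. The left panel gives the 5hmC share of modified CpGs in Tet tcKO (percent) and the right panel the 5hmC kept (percent of Cre-), with dotted lines at the values over all shared regions, 6.30% and 25.5%. The bars spread from 4.66% to 8.99% on the left and from 24.0% to 26.9% on the right.

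The single regions at the ends of the range were small and often in repeats. The chr14 region printed first, of 67 bp and 21 CpGs, had a 5hmC level of 58.6% in Tet tcKO and 69.8% in Cre-, and a WGBS level of 89.6% in Tet tcKO. All of its bases are soft-masked, and 1 of the 3 stretches of 36 bases searched in it occurred 29 times in the reference. The Alg9 region had 28.2% 5hmC in Tet tcKO against 6.10% in Cre- and was 1 of the 9 regions with more 5hmC in Tet tcKO. Of its bases 76.7% are soft-masked, and a stretch searched in it occurred 37 times. The Cry1 region had 23.0% against 42.8%, and the 3 stretches searched in it each occurred once, although 95.3% of its bases are soft-masked. An intronic region of Prex1 (chromosome 2, 166671622 to 166671873) had 27.4% against 45.5%, with a stretch found 2918 times. Reads from repeat copies cannot be placed with certainty, and the part of this in the levels was not tested.

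By share, the leading regions after chr14 were an intergenic one 5,654 bp from Cnot10 with 50.2% and a partly coding one of Klhl35 (chromosome 7, 99469018 to 99469142) with 49.3%. In the region near Cnot10, 91.5% of the bases are soft-masked and a stretch searched occurred 115 times. At Klhl35 the WGBS level was 11.1% and the 5hmC level 5.47%. The covering bACE-seq region had 2034 bp against 125 bp, and in Cre- its 5hmC level of 17.1% exceeded the WGBS level of 7.98%. Regions of Rnf121 and Poldip3 followed with 45.9% and 43.0%. At Poldip3 the covering bACE-seq sequence spanned 5433 bp against 241 bp. In Cre- its 5hmC level of 28.1% likewise exceeded the WGBS level of 9.21%. The printed region of Gxylt1 had the lowest WGBS level in Tet tcKO, 4.82%, with 0.236% 5hmC. The regions of Nrxn2, Atp6v0b and Mllt3 had WGBS levels of 5.95%, 6.27% and 6.50%, and an intronic region of Cabin1 had 6.89% over 65 CpGs. In Nrxn2, Mllt3 and Cabin1 the level was lower than in Cre-, which had 7.91%, 9.71% and 15.4%.

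Among long, well methylated regions, with at least 50 CpGs and a WGBS level of at least 80%, the lowest 5hmC share was 3.26% in an exon of Klhl26 (chromosome 8, 70451531 to 70452466). Its 72 CpGs had a WGBS level of 86.2% and a 5hmC level of 2.81%, where Cre- had 79.2% and 10.0%. It was followed by regions crossing exons of the phosphatase gene Ptpru with 3.64% and of the exchange factor gene Arhgef17 with 3.88%, an intergenic region 136,068 bp from Rab2a with 3.69% and an intron of the RNA editing gene Adarb1 with 4.21%. The 5hmC kept in these 5 regions lay between 25.6% and 30.2%.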

How the data were processed

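Genomic DNA of whole retinas was profiled by WGBS and bACE-seq in 3 Cre- and 3 Tet tcKO samples per assay, grouped by the sample labels. Per the study's methods and the submitters' processing notes, the authors trimmed reads with Trim Galore (0.4.4), aligned them to mm10 with Bismark (0.18.2), filtered on mapping quality with SAMtools (1.15.1), removed duplicates with Picard, extracted CpG levels with MethylDackel (0.6.1), and called regions with DSS with smoothing of levels along the genome. For bACE-seq the reads of a pair were aligned separately. The deposited levels give, for each region, the fraction of reads that were modified as 1 mean per group, and are printed here as percentages. The columns with the authors' difference and area statistic were not used. Which mean belongs to which group was read from how the lists are named. Read counts, replicate levels and conversion were not analysed here.

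A WGBS region was kept if bACE-seq regions together covered at least 50% of its bases, and its 5hmC level is the mean of those regions weighted by their CpGs. Means over regions were weighted by the CpGs of the WGBS region. In 99.6% of the regions kept, the CpG number in the list was the one counted in GRCm38. Genes came from the GENCODE M21 basic annotation (32,106 protein-coding and long noncoding genes). The pairing was tested on simulated intervals. Calculations used Python (3.11.15), pandas (2.3.3) and numpy (2.4.6). Named regions were the 5 each with the highest 5hmC level, the highest 5hmC share and the lowest WGBS level, under the minimums given beside them. A further 5 had the lowest 5hmC share among long, well methylated regions. Named list genes are the highest, the lowest and the one with most CpGs. Regions, lists and limits were chosen with earlier results of these data known, and some genes and regions are not reported here. Alternatives concerned coverage, CpG number, direction, weighting, an assumed background, promoter width, flanks and the WGBS limit.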

Additional observations from a re-analysis of the deposited data

How the results depend on the processing

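The 14 results were recomputed under 14 alternatives, 1 of them added after seeing the data, which gave 92 values. A value was taken as unmoved if it stayed within 1 SD over the 19 autosomes (for gene lists, over the list's genes), and a count if it stayed within 1.5 times. By this yardstick 57 values were unmoved, 35 moved and 0 changed sign. Subtracting 2 percentage points for cytosine that escaped conversion lowered the 5hmC level to 2.91%, the share to 3.76% and the 5hmC kept to 17.0%, and the share to 4.08% in promoters, 4.05% in gene bodies, 2.93% in intergenic sequence, and 5.35%, 3.99%, 2.11% and 2.93% at rod, cone, microglia and vascular loci. With 1 point they were 3.89%, 5.02% and 21.4%. Unweighted medians were 4.55% (5hmC), 83.8% (WGBS), 5.74% (share) and 24.8% (kept). With at least 10 CpGs, 51,311 regions had a WGBS level of 75.0%, a share of 6.66%, 26.0% kept and 6.14% under 50%. With at least 80% covered, the WGBS level was 79.6%, the part under 50% 3.11%, the promoter share 6.60% and the density difference -1.30 points, which was -1.32 points with 1 bACE-seq region alone. With at least 1 bp covered, the WGBS level was 75.4% and the part under 50% 5.89%. With a limit of 60%, 8.21% of regions were below it. In the added alternative, only bACE-seq regions with at least 50% of their bases inside the WGBS region were used. It left 34,913 regions with 4.63% 5hmC, a WGBS level of 75.3%, 26.2% kept and 4.96% under 50%. The order of the share, promoters over gene bodies over intergenic sequence and rod over cone over vascular over microglia loci, was the same in each alternative that gave these values, except that microglia loci (5.34%) were above vascular loci (5.22%) in the added alternative. No paired analysis was possible because the lists hold 1 mean per group, and no replicate could be left out. Escape from conversion was estimated in the study from spiked-in DNA and was not analysed here, so no level above is corrected for it unless said.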

Other observations

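Chromosome X lay outside the autosomal regions described above. By the same coverage rule, 851 of its WGBS regions with 6923 CpGs had a WGBS level of 75.3% in Tet tcKO and a 5hmC level of 3.22%, against 60.8% and 14.6% in Cre-. The 5hmC share was 4.28% and the 5hmC kept 22.1%, both below the lowest autosome (6.01% and 25.1%, both on chromosome 3). The difference was not tested, and the lists give no level for single libraries.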
